A study of Drosophila melanogaster with 3 samples.

Results

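The Rab genes of Drosophila melanogaster encode small GTPases of intracellular membrane traffic, and they are described here as places where an Antennapedia (Antp) fusion protein was detected on embryonic chromatin. They were taken as the protein-coding genes of the dm6 annotation whose symbol starts with Rab and a digit, or with RabX and a digit, which gave 36 of 13968 protein-coding genes. Of these, 33 encode Rab GTPases, and 3 matched by symbol alone and encode regulators of the GTPase Rab3 (Rab3-GEF, Rab3GAP1 and Rab3-GAP). The series holds 1 group, embryos aged 0 to 24 h of the strain AntP-MiMIC-GFP with males and females mixed, in 3 biological replicates. The line carries an eGFP exon in an intron of Antp, which makes an AntP-GFP fusion gene, so the tagged protein is read from the Antp locus itself. Chromatin of whole embryos was sonicated to 200 to 800 bp and precipitated with an antibody against GFP, although the antibody field of the labels reads Antp. No control samples were analysed here, so there is no contrast between groups, and cells and stages of the whole embryo are pooled in each sample.

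A Rab GTPase is bound to a membrane in its GTP form, recruits effectors that move, tether or fuse vesicles, and is released after hydrolysis of GTP. Exchange factors (GEFs) load GTP and activating proteins (GAPs) speed its hydrolysis. Each family member marks its own compartments, such as Rab5 on early endosomes and Rab7 on late endosomes, and many members are needed in most cell types. Antp is a Hox factor that sets the identity of segments in the thorax, and its homeodomain recognises short A and T rich core sequences.

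The 3 replicate lists and the list called on pooled reads have 30000 entries each, true peaks and noise together, and the deposited list that passed the IDR filter (irreproducible discovery rate, agreement of ranks between replicates) held 4351 peaks. The IDR peaks were the 4351 strongest pooled entries, with signals of 103.4 to 4656 and a median of 172.0, where signal is the authors' value of peak strength and has no unit. The lists hold no read counts, so depth is unknown. Between pairs of replicates at most 1 interval had identical borders, and none of these had the same signal.

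Antp-eGFP peaks lay in or within 1 kb of the majority of Rab genes, mostly at promoters and mostly weak relative to the IDR list. Bound here means that the summit (highest point) of an IDR peak fell between 1 kb before and 1 kb after the gene. By this rule 19 of 36 Rab genes (52.8%) were bound, against 30.0% of all protein-coding genes, and 17 of the 33 GTPases (51.5%) were bound. Together the bound genes held 25 summits. The median signal of these summits was 145.7, with a range of 106.6 to 863.0, and 8 of 25 lay above the median of all IDR peaks. The share of bound genes was near that of related genes: 23 of 45 genes (51.1%) on a list of Rab GEFs, GAPs, escort proteins and effectors were bound, without the 2 that are also Rab genes by symbol, and 16 of 30 other small GTPases (53.3%). Without the 1 kb extension 8 Rab genes (22.2%) were bound, against 11.8% of coding genes. With the stronger 2175 IDR peaks alone 8 (22.2%) were, against 17.9%.

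By the other rules the Rab share was also the higher one, but not under each setting. An IDR summit lay within 500 bp of a transcription start site (TSS) of its own in 16 of 36 Rab genes (44.4%), against 20.8% of coding genes. With the stronger 2175 IDR peaks alone the order turned, with 4 of 36 Rab genes (11.1%) against 11.7%. A Rab gene had the nearest TSS of an IDR summit in 13 of 36 cases (36.1%), against 20.1% of coding genes. In replicate 1 alone this was 8 of 36 (22.2%) against 20.0%, close to the background. In 16 of 36 Rab genes (44.4%) the span plus 1 kb held a summit among the 4351 strongest entries of each of the 3 replicates, against 23.4% of coding genes. Without the 1 kb extension the order turned here too, with 3 of 36 Rab genes (8.33%) against 8.67%. Weaker signal was common everywhere: 30 of 36 Rab genes (83.3%) had an entry of the pooled list, against 75.0% of coding genes, so this last count is close to its background. The number of Rab genes with a summit among the 4351 strongest entries was 17 in replicate 1, against 29.5% of coding genes, 19 in replicate 2, against 30.0%, and 20 in replicate 3, against 29.4%; as shares of the 36 Rab genes these are 47.2%, 52.8% and 55.6%.

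**Figure D1:**
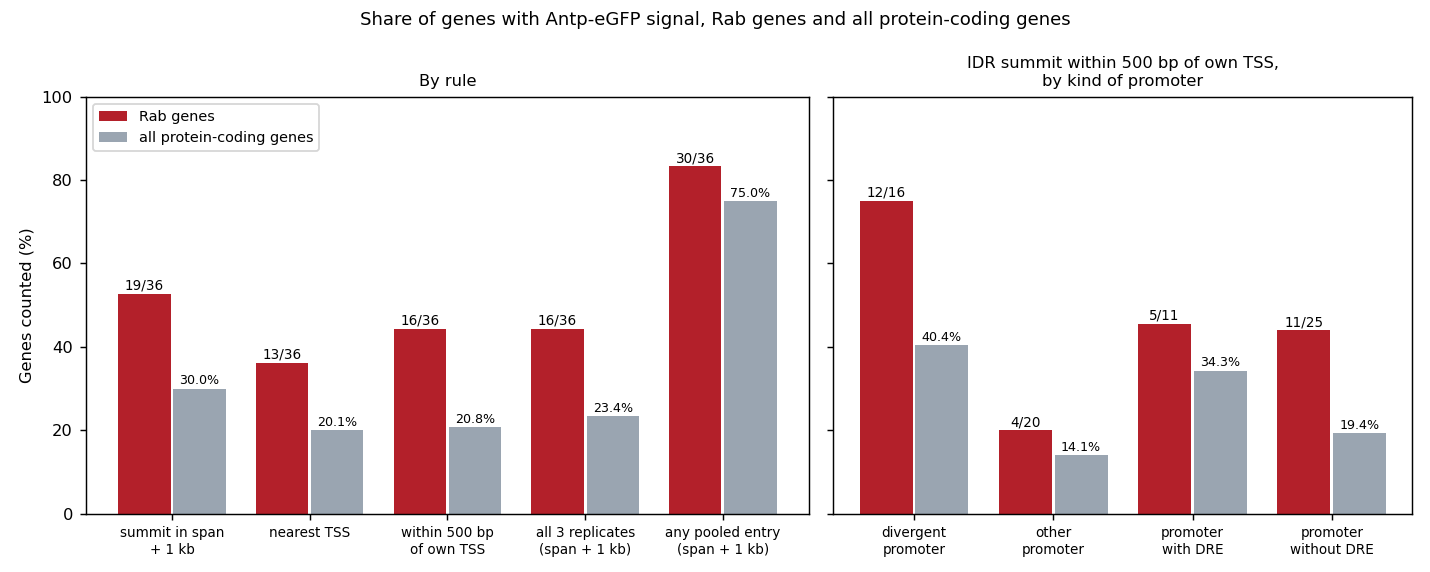
Percent of genes counted (vertical axis) among the 36 Rab genes (red, with counts) and all 13968 protein-coding genes (grey), by 5 rules on the left and by kind of promoter on the right. The Rab share is above the share of all coding genes in each of the pairs drawn, and the gap is small for any pooled entry (83.3% against 75.0%).

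Gene length bears on such counts, because a longer span has more room for a summit. The median span was 2882 bp for Rab genes and 2164 bp for coding genes, and 3354 bp for bound Rab genes against 1518 bp for Rab genes without an IDR summit. Among genes with a span of 2 to 5 kb, 11 of 14 Rab genes were bound, against 32.1% of coding genes in that class. Under 2 kb the count was 4 of 15 Rab genes against 19.0%, and from 5 to 15 kb it was 3 of 4 against 43.9%. The 15 Rab genes under 2 kb include the 6 X paralogs described below, with spans of 791 to 897 bp and none bound. Much of the sequence of some of them is repeated, and all 6 also enter the median of 1518 bp. Of the 3 Rab genes of 15 kb and over, 1 was bound, against 54.7%. The gap to coding genes was widest in the classes of 2 to 5 kb and 5 to 15 kb, and the classes above 5 kb hold few Rab genes.

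Of the 25 summits, 16 lay within 500 bp of a TSS of the Rab gene and 10 within 100 bp. Counting the TSSs of any gene, 20 of 25 lay within 500 bp, against 54.9% of all IDR summits. Relative to the Rab gene, 14 summits lay upstream, 6 in an intron, 3 in a 5′ UTR and 2 downstream. The nearest TSS was that of the Rab gene for 15 summits and that of another gene for 10. Shares over all IDR summits are not given here for place or nearest gene, so these counts describe the Rab summits only. Summits nearest to another gene had a median signal of 155.3 (range 109.1 to 863.0), and those nearest to the Rab gene a median of 136.1 (range 106.6 to 398.7), so the ranges overlapped.

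**Figure D2:**
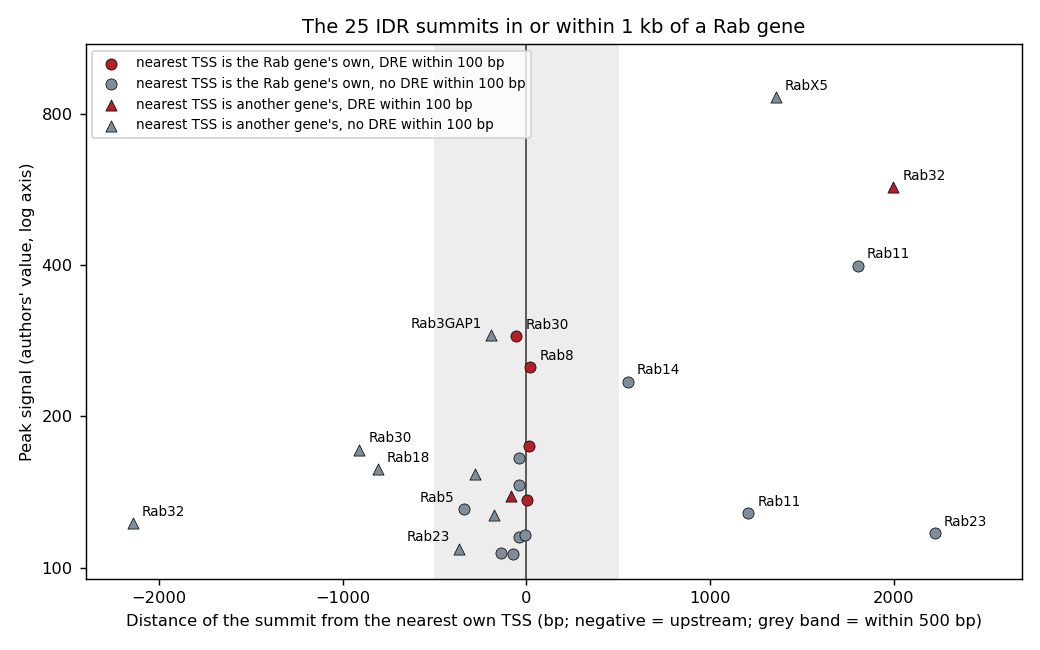
Signal of each of the 25 IDR summits (vertical log axis, authors' value) against its distance from the nearest TSS of the Rab gene (horizontal axis, bp, negative is upstream). Circles mark summits whose nearest TSS is that of the Rab gene, triangles those nearer to another gene, and red a DRE within 100 bp; the 3 strongest summits, RabX5 at 863.0, Rab32 at 572.0 and Rab11 at 398.7, all lie over 1000 bp from the TSS of the Rab gene.

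Sequence at the summits was read next, because a group of promoter summits shared one element, the DNA replication-related element (DRE). The DRE, TATCGATA, is bound by the factor DREF and is common in promoters of housekeeping genes of the fly. It lay within 100 bp of 6 of 25 Rab summits (24.0%), against 4.80% of all IDR summits. Both shares were higher near starts: among summits within 500 bp of any TSS the DRE was found at 6 of 20 Rab summits (30.0%) against 8.41% of IDR summits, and farther away at 0 of 5 against 0.408%. The 6 summits belong to Rab27, Rab30, Rab32, Rab40, Rab7 and Rab8. The sequence of 121 bp around the summit is shown for 5 of them, those within 500 bp of the TSS of the Rab gene. Each of these 5 promoters is shared with a coding gene on the other strand: Caper, Usp32, Epp, mei-38 and CG42258 in the order shown. The DRE and summit therefore cannot be given to the Rab gene alone. Each sequence is written 5′ to 3′ on the strand of the Rab gene, and capitals mark the DRE and the Hox core form TAATTA.
Rab30, dm6 chr2L:7032601-7032721, minus strand: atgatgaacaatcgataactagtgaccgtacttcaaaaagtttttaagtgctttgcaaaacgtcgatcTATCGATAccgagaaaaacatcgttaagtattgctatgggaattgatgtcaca
Rab8, dm6 chr3L:19870996-19871116, minus strand: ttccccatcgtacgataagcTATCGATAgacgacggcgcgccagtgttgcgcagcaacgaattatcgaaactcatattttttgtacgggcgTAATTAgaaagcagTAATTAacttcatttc
Rab7, dm6 chr3R:23992964-23993084, plus strand: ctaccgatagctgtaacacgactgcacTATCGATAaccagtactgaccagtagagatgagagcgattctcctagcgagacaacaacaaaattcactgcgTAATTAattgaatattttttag
Rab27, dm6 chrX:1476999-1477119, minus strand: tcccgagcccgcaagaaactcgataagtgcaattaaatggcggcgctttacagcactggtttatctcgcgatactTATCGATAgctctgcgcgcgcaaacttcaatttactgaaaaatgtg
Rab40, dm6 chrX:12463048-12463168, minus strand: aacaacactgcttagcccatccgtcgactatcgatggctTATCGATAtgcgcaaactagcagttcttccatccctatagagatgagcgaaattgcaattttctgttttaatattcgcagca

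In these sequences the centre of the DRE lay 11 bp from the summit at Rab30, 36 bp at Rab8, 29 bp at Rab7, 18 bp at Rab27 and 17 bp at Rab40. Measured from the TSS of the Rab gene, the DRE was 44 bp upstream in Rab30, 66 bp upstream in Rab27 and 14 bp upstream in each of Rab8, Rab7 and Rab40. At Rab32 the DRE lay 24 bp from the summit, which is at the start of the neighbouring gene Rme-8. A pair of other summits, both strong and outside the promoter of the Rab gene, are shown beside these. Neither holds a DRE in the 121 bp shown, and the capitals mark the Hox core form TAATGG. The Rab32 summit, at 572.0, is likewise strong and outside the promoter of its Rab gene but does hold one.
RabX5, dm6 chr3L:1668690-1668810, minus strand: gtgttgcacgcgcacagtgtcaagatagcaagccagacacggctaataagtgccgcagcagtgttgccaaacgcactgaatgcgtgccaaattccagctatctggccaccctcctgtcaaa
Rab11 intron, dm6 chr3R:21113151-21113271, plus strand: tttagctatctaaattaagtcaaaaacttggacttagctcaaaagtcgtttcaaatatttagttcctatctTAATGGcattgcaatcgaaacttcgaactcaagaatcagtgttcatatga

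The core of the DRE without its outer letters, ATCGAT, was counted after the sequences had been seen. It lay within 100 bp of 11 of 25 Rab summits (44.0%), against 12.5% of all IDR summits, which adds Rab10, Rab11 at the promoter, Rab14, Rab21 and Rab3-GAP to the 6 above. Promoters were taken as 250 bp before to 50 bp after the most upstream TSS of each gene. The full DRE was found in those of 11 of 36 Rab genes (30.6%), against 9.36% of coding genes. The 11 are Rab14, Rab19, Rab2, Rab27, Rab30, Rab35, Rab40, Rab6, Rab7, Rab8 and RabX6. A summit within 500 bp of any TSS of the gene was present at 5 of these 11 genes, against 34.3% of coding genes with a DRE in the promoter. Rab genes without a DRE in the promoter had such a summit in 11 of 25 cases, against 19.4%. The motif was read at the most upstream TSS alone, while the summit could lie at any TSS of the gene. Rab5, among the 11 without a DRE, has its summit by an internal start. The DRE was thus frequent in Rab promoters, but the share of genes with such a summit was 45.5% with it and 44.0% without it. The lists of related genes held the DRE less often than the Rab promoters and more often than coding promoters as a whole, with 9 of 47 machinery genes (19.1%) and 6 of 30 other small GTPases (20.0%); these differences were not tested.

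Cores recognised by Hox proteins were present at some Rab summits. TAATTA lay within 100 bp of 5 of 25 Rab summits (20.0%), against 12.0% of all IDR summits, and TAATGG of 4 of 25 (16.0%), against 8.23%. Either form was found at 8 of 25 Rab summits (32.0%), against 19.1%, and within 50 bp at 7 (28.0%), against 9.91%. Within 250 bp the shares were 11 of 25 (44.0%) and 41.3%, which are close. The 8 summits are those of Rab11 in the intron and at the promoter, Rab18 at its distal summit, Rab21, Rab39, Rab3GAP1, Rab7 and Rab8, and 2 of them, at Rab7 and Rab8, also hold a DRE. The window at the distal Rab18 summit is the one whose nearest TSS is that of RpL35. In promoters the Rab share was not higher. TAATTA lay in 7 of 36 Rab promoters (19.4%), against 20.5% of coding promoters, and TAATGG in 3 of 36 (8.33%), against 12.1%.

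Of the other motifs, GAGA and the TATA box were rarer in Rab promoters, while Ohler1 and the E-box had no single direction. Ohler1, GGTCACAC, a further motif of housekeeping promoters, was found at 0 of 25 Rab summits, against 2.80%, and in 4 of 36 Rab promoters (11.1%), against 7.70%. The GAGA motif, GAGAG, was found at 4 of 25 Rab summits (16.0%), against 25.1%, and in 5 of 36 Rab promoters (13.9%), against 29.8%. The letters TATAAA of the TATA box lay in 10 of 36 Rab promoters (27.8%), against 45.9%, and at 6 of 25 summits (24.0%), against 26.4%. Within 250 bp of the summit the shares were close, with GAGA at 48.0% against 52.5% and TATAAA at 52.0% against 50.1%. CAGCTG, an E-box, was found within 100 bp of 5 of 25 summits (20.0%), against 11.5%, but within 50 bp of 1 of 25 (4.0%), against 5.42%, so its direction depends on the window, and it lay in 7 of 36 Rab promoters (19.4%), against 17.7%. All motifs were searched on both strands, ATCGAT lies inside TATCGATA, and a match describes letters only.

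**Figure D3:**
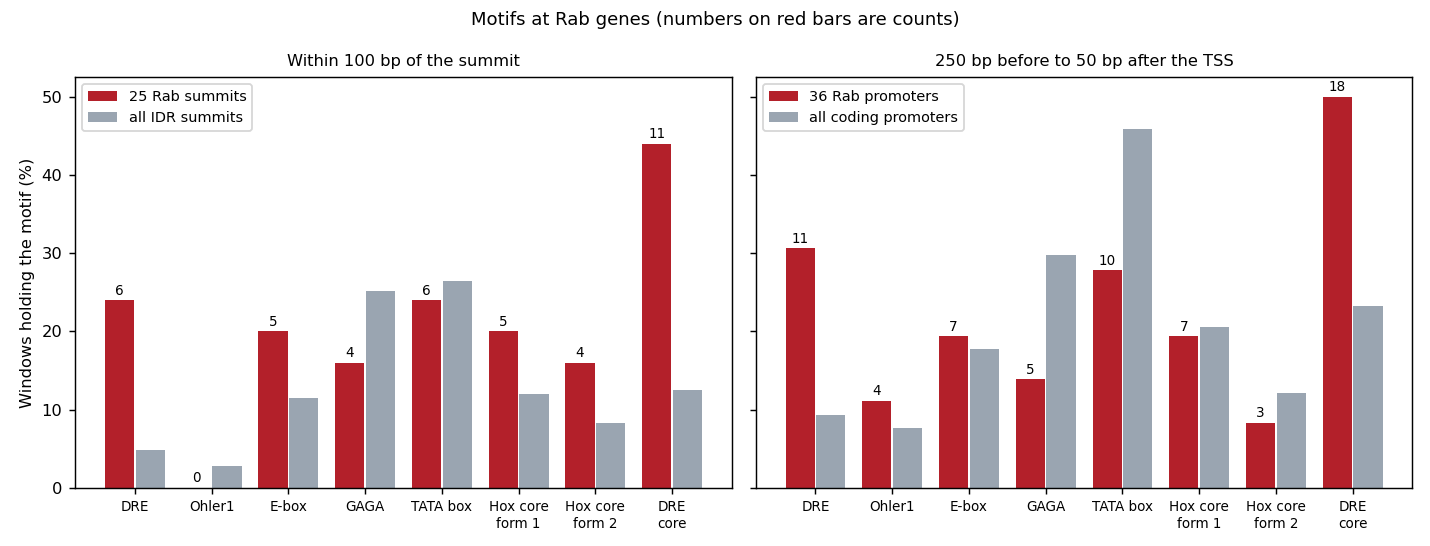
Percent of windows holding each motif (vertical axis), at the 25 Rab summits and all 4351 IDR summits on the left, and in the 36 Rab promoters and all coding promoters on the right (red Rab, grey all, counts on red bars; Hox core form 1 is TAATTA and form 2 is TAATGG). The DRE stands at 24.0% against 4.80% at summits and 30.6% against 9.36% in promoters, while GAGA and the TATA box are lower in Rab promoters.

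Rab promoters were often shared with a neighbour. A divergent promoter, where a coding gene on the other strand starts within 500 bp, was found for 16 of 36 Rab genes (44.4%), against 25.4% of coding genes, and for 24 of 47 machinery genes (51.1%) and 16 of 30 other small GTPases (53.3%). Of the 16 Rab genes with such a promoter, 12 had a summit within 500 bp of their own TSS (75.0%), against 40.4% of coding genes with a divergent promoter. Of the other 20 Rab genes 4 had one (20.0%), against 14.1%. At a divergent promoter a summit cannot be given to either gene from its position, so the count holds for the pair in 11 of the 12: Rab10 with CG17068, Rab21 with Coa7, Rab23 with plx, Rab27 with mei-38, Rab30 with Caper, Rab39 with Pdp, Rab3GAP1 with CG14352, Rab40 with CG42258, Rab7 with Epp, Rab8 with Usp32 and RabX1 with mi. The exception is Rab5, which shares a promoter with Axud1 but has its summit inside the gene, by an internal start. The partner of Rab23, plx, encodes a protein with a Rab GAP domain.

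Among the 7 Rab genes of early and recycling endosomes, 5 were bound. For this and each role group below, the share of all coding genes is 30.0%, and the groups are small. Rab11, which directs recycling endosomes, held 3 IDR summits, more than any other Rab gene. Its main summit lay in an intron 1803 bp downstream of the TSS with signal 398.7 and ranked 690, 603 and 423 in replicates 1, 2 and 3. A weaker summit 1207 bp downstream had signal 128.3 and ranks of 3378, 2626 and 7834, and one 136 bp upstream of the TSS had 107.0 and ranks of 4061, 7934 and 4521, where the strongest overlapping entry of replicate 2 ranked 5288. The main summit was thus high in all 3 replicates, while each of the others lay outside the 4351 strongest entries in 1 or more replicates. Rab5, which governs fusion of early endosomes, had a summit of 130.7 that lay 342 bp upstream of the nearest of its 6 TSSs, inside an intron, with ranks of 1755, 2443 and 9621, and the strongest entry of the gene in replicate 3 ranked 3795. Rab14, an endosomal Rab of phagosome maturation, had a summit of 234.4 in an intron 553 bp downstream of its TSS with ranks of 1270, 1419 and 1363. The summit of Rab14 was therefore steady over replicates and that of Rab5 was low in replicate 3.

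The 2 remaining bound genes of this group were weak. Rab21, which acts in integrin traffic in mammals, had a summit of 116.3 that lay 9 bp upstream of its TSS. It ranked 2568 in replicate 2 and 2895 in replicate 3, but in replicate 1 the strongest entry of the gene ranked 25326. RabX1, an endosomal Rab also called chrowded, had 127.1 at 175 bp upstream, with ranks of 3246, 3481 and 3278, and the TSS of mi was nearer at 68 bp. Of the unbound genes, Rab35, which acts in recycling to the plasma membrane, had a pooled entry of 84.34 and was among the 4351 strongest entries in replicate 3 (rank 3665), against ranks of 10591 and 11462 in replicates 1 and 2. Rab4, of fast recycling, had a pooled entry of 37.42 at rank 23031 and an entry of its own in replicate 2 alone.

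Among the 7 genes of the early secretory pathway and Golgi, 4 were bound. Rab30, a Golgi Rab, had a promoter summit of 288.6 at 55 bp upstream, with ranks of 909, 1813 and 792, and a second of 171.6 at 909 bp upstream with ranks of 2111, 1764 and 3643, which lay nearest to Caper at 794 bp. Rab1, needed for traffic from the endoplasmic reticulum to the Golgi, had 165.5 at 42 bp upstream, with ranks of 1919, 2497 and 2778. All of these summits ranked within the 4351 strongest entries of every replicate. Rab18, a Rab of the endoplasmic reticulum and lipid droplets, had 145.7 at 43 bp upstream and 156.9 at 810 bp upstream, and the distal summit lay 112 bp from the TSS of RpL35, a ribosomal protein gene. The ranks were 2789, 3085 and 3020 at the proximal summit, and 2778, 2880 and 2403 at the distal one. Rab39 had 153.7 at 281 bp upstream, with ranks of 2987, 1720 and 3174, and lay 9 bp from the TSS of Pdp.

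The 3 unbound genes of the early secretory group differed in how near they came. Rab2, of Golgi traffic, had a pooled entry of 80.25 at rank 6003, yet it ranked 4081 in replicate 1 and 3398 in replicate 3, against 6455 in replicate 2. Rab19 had its pooled entry at rank 9776 and Rab6, a Golgi Rab, at rank 18209. Rab2 was therefore close to the threshold in single replicates and Rab6 was not.

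Among the 5 Rab genes of exocytosis and polarised delivery, 3 were bound. Rab8, which acts in delivery from the Golgi to the plasma membrane, had 250.1 at 22 bp downstream of its TSS, with ranks of 1545, 1173 and 1240. Rab27, of secretory granule release in mammals, had 138.5 at 85 bp upstream, with ranks of 2540, 3246 and 3777, and lay 4 bp from the TSS of mei-38. Rab10, which in the fly is needed for polarised secretion of basement membrane, had 115.3 at 40 bp upstream, with ranks of 8090, 2622 and 4169. Replicate 1 was thus the low one at Rab10. The other 2 genes were unbound: Rab3, the synaptic vesicle Rab, had a pooled entry of 42.36 at rank 18427, and Rab26 one of 65.04 at rank 8297.

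Late endosomes and lysosomes are represented by 3 genes, of which 2 were bound. Rab7, the late endosomal Rab, had 174.3 at 16 bp downstream of its TSS, with rank 1306 in replicate 1 and 1905 in replicate 3, and in replicate 2 the overlapping entry had rank 2852 with a summit just over 100 bp away. Rab32, called lightoid in the fly and known for pigment granules, had its stronger summit, 572.0, downstream of the gene and 87 bp from the TSS of Rme-8, with ranks of 277, 219 and 348. A second summit of 122.8 in an intron had ranks of 5022, 4200 and 2856 and lay 248 bp from the TSS of a noncoding gene, lncRNA:CR44284. The stronger signal at Rab32 therefore lay nearer to the start of a neighbour than to its own. Rab9, of traffic from late endosomes to the Golgi in mammals, was unbound, with a pooled entry of 74.30 at rank 6701.

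The 3 regulators of Rab3 differed. Rab3GAP1, a subunit of the GAP of Rab3, had 289.6 at 191 bp upstream, with ranks of 1031, 858 and 1128, and lay 62 bp from the TSS of CG14352. Rab3-GAP, also of this complex, had 106.6 at 71 bp upstream, with ranks of 5510, 3196 and 8850, the lowest signal among the 25 summits. Rab3-GEF, the exchange factor, has a span of 24081 bp and was unbound, with a pooled entry of 44.90 at rank 16547. Rab3GAP1 was therefore high in each replicate and Rab3-GAP in replicate 2 alone.

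Of the 11 other Rab genes, 3 were bound, near the 30.0% of all coding genes. This group includes the 6 X paralogs described below, none of them bound. RabX5 had the strongest summit of any Rab gene, 863.0, with ranks of 96, 178 and 83, but it lay downstream of the gene, 1358 bp from its TSS and 96 bp from the TSS of RpL23A, a ribosomal protein gene. Rab40, which in mammals is an adaptor of ubiquitin ligases, had 136.1 at 4 bp downstream of its TSS. Overlapping entries at Rab40 ranked 2756, 3384 and 3134, with summits 124, 135 and 82 bp away, so the replicate summits stood apart from the pooled one. Rab23, which acts in planar cell polarity in the fly, had an intronic summit of 117.1 at 2224 bp downstream with rank 4928 in replicate 1 and 2945 in replicate 3, and in replicate 2 an overlapping entry of rank 2786 with its summit 113 bp away, beside a nearer one of rank 15788. A second summit of 109.1 lay 368 bp upstream and 53 bp from the TSS of plx, with ranks of 3200, 3663 and 5084. RabX4 was unbound, with a pooled entry of 62.59 at rank 8877, and RabX6 had no pooled entry.

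**Figure D4:**
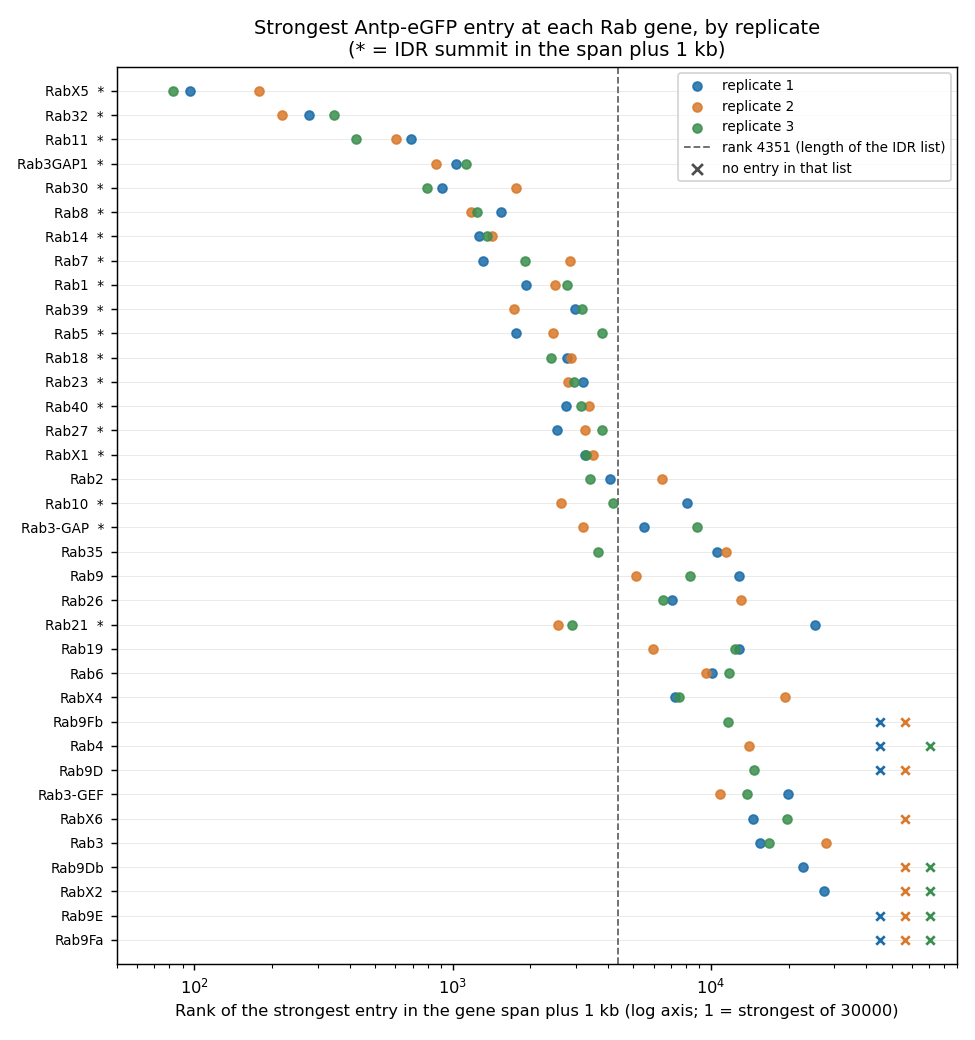
Rank of the strongest entry in the span plus 1 kb of each of the 36 Rab genes (horizontal log axis, 1 is the strongest of 30000) in the 3 replicates (colours); crosses are replicates with no entry, the dashed line is rank 4351, and an asterisk marks genes with an IDR summit. RabX5 stands at ranks 96, 178 and 83 and Rab32 at 277, 219 and 348, and Rab9E and Rab9Fa have no entry in any replicate.

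The remaining 6 unbound genes, Rab9D, Rab9Db, Rab9E, Rab9Fa, Rab9Fb and RabX2, are short paralogs on the X chromosome with spans of 791 to 897 bp in a stretch of 535 kb. They differ from the other Rab genes in sequence. Rab9D, Rab9Db, Rab9E and Rab9Fa were 98.5% to 99.4% identical in aligned span, and the percentage of their 32 bp words that occur elsewhere in the genome was 95.4, 90.2, 86.4 and 96.2. The same percentage was 2.24 at Rab9Fb and 17.4 at RabX2, and at most 1.08 in all other Rab genes. Reads in repeated sequence may be placed at several loci or discarded, and how the authors treated them is not given in the sources used here. The absence of peaks in the spans of the first 4 genes therefore cannot be told apart from unmappable sequence. The 1 kb on either side, which counts for a bound gene, was not read for repeats. Within span plus 1 kb, Rab9D had an entry of rank 14709 in replicate 3 alone. Rab9Db had one of rank 22702 in replicate 1 alone. Rab9Fb had a pooled entry of 35.01 at rank 25864 and RabX2 had none, while 15 of 51 coding genes in the same stretch were bound. Rab9E and Rab9Fa had no entry in any of the 4 lists of 30000.

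By chromosome arm, 5 of 7 Rab genes on 2L were bound, against 27.7% of coding genes there, 2 of 5 on 2R, against 29.1%, and 2 of 5 on 3L, against 29.8%. On 3R 4 of 5 were bound, against 31.8%, and on X 6 of 14 (42.9%), against 32.4%. With 5 to 7 genes on each autosomal arm, 1 gene moves these shares widely. The 6 paralogs without a summit all stand among the 14 genes on X.

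The machinery that loads, unloads and reads Rab proteins showed a like pattern. Of 49 listed genes 47 were matched, and 9 of 16 GEFs and activators, 6 of 9 GAPs, 8 of 19 effectors and 1 of 3 escort and lipid attachment genes were bound, against 30.0% of all coding genes, so the escort genes (33.3%) are near the background and the effectors (42.1%) not far above it. Rab3-GEF and Rab3GAP1 stand on this list and among the Rab genes; with them 24 of 47 were bound (51.1%). Its strongest summits were at Rbsn-5, a Rab5 effector, with 769.6 nearest to the TSS of Acbp1, at Evi5, a Rab GAP, with 433.4, at spri, an exchange factor, with 399.3, and at Rab3GAP1. The unbound genes with the longest spans were btsz and Rim. Of the other small GTPases, Mtl had 598.5, Ras85D 395.6, RhoBTB 367.8 nearest to the TSS of Ide, and RhoL 336.0, and Rgk3 and Rgk2 were the longest unbound genes.

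Over the 25 summits, 22 had a replicate summit within 100 bp in all 3 replicates and 14 ranked among the 4351 strongest entries of each. The IDR list was itself chosen for agreement between these replicates. Shares over all 4351 IDR summits are not given here, so whether these counts are high or low cannot be said. The mean rank of a Rab summit, taken over its matched replicates only, had a median of 2732. Replicates without a match were left out, which were replicate 1 at Rab21, replicate 2 at Rab7, and replicates 1 and 2 at Rab40. The 100 bp limit matters here, because overlapping entries at Rab7 and Rab40 ranked among the 4351 strongest in each replicate. The overlapping entry at Rab21 in replicate 1 ranked 25326. The median rank of the matched summits was 2540, 2568 and 2945 in replicates 1, 2 and 3, with an SD of 226.2. These medians rest on 23, 23 and 25 summits. By gene, 16 Rab genes were among the strongest entries in all 3 replicates, 3 in 2 replicates (Rab10, Rab2 and Rab21), 2 in 1 replicate (Rab3-GAP and Rab35) and 15 in none. Just inside the IDR list stood Rab3-GAP with 106.6, the promoter summit of Rab11 with 107.0 and the promoter summit of Rab23 with 109.1, and the nearest Rab genes outside it were Rab35 with 84.34 and Rab2 with 80.25.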

How the data were processed

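The dm6 peak lists of 1 group with 3 biological replicates were used. Per the deposited file descriptions, the replicate lists derive from the alignments of 1 replicate and 1 further file, the pooled list from those of all 3, and the IDR list from these lists. Aligner, caller, IDR threshold and read totals were not given in the sources used here. The signal deposited by the authors is the caller's peak strength and was never compared between lists. An alternative ranking took the −log10 q-value that the authors deposited, at which 3253 of 4351 IDR peaks tie. The dm3 lists were not used.

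Summits were placed on dm6 with the gene annotation of Ensembl release 115. The span of a gene was extended by 1 kb on either side to call it bound; TSSs of genes of all kinds compete for the nearest TSS. Divergent genes start within 500 bp on opposite strands, with up to 100 bp of overlap allowed. Replicate summits were matched within 100 bp. Motifs were searched on both strands in 201 bp windows. Sequences come from the RefSeq dm6 assembly. Python 3.11.15 with pandas 2.3.3, numpy 2.4.6 and Biopython 1.88 was used, and the procedures were tested on simulated data. All 36 members were accounted for; genes with an IDR summit or an entry among the 4351 strongest of a replicate got values per replicate, and from each list up to 4 bound genes with the highest signal and 2 unbound with the longest span were named. The members and lists were chosen with earlier results of these data known, so no test was made and shares are descriptions. The 3 replicates are separate biological samples per the labels.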

Additional observations from a re-analysis of the deposited data

How the results depend on the processing

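Of the recomputed values, 33 stayed near the reported one (within 1.5 times for a count, and within 1 SD over replicates for the median rank) and 10 moved. Without the 1 kb extension, 8 Rab genes (22.2%) were bound, against 11.8% of coding genes, and 3 (8.33%) were bound in all 3 replicates, against 8.67%. With the stronger 2175 IDR peaks alone, 8 Rab genes (22.2%) were bound, against 17.9% of coding genes. The nearest TSS was that of 5 (13.9%), against 11.5%, and 4 (11.1%) had a promoter summit, against 11.7%. The Rab share was the lower one in the count of 3 and in the count of 4. With 2175 entries per replicate, 7 Rab genes (19.4%) were in all 3, against 14.2% of coding genes. In replicate 1 alone, 8 Rab genes (22.2%) had the nearest TSS, against 20.0%. The median rank was 2965 with any overlap of 1 bp. The core of the DRE in place of the full DRE, chosen after seeing the data, gave 11 summits, against 12.5% of IDR summits. Leaving out each replicate in turn gave 16 to 18 genes in the strongest entries of all replicates left, and a median rank of 2461 to 2904, lowest without replicate 3. No paired analysis was possible because there is 1 group. The cause of these changes was not tested, except that fewer entries or shorter spans hold fewer summits by construction. Depth is unknown, whole embryos pool cell types and stages, no untagged control was analysed here, and 25 summits make each share coarse.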
